A study of Mus musculus with 15 samples.

Results

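Keratins are the proteins of the intermediate filaments of epithelial cells, and their genes were taken as all gene symbols made of Krt, a number and an optional small letter. The rule found 53 keratin genes among the 21886 genes of 1 expression table and 33 among the 14301 genes of another. They were grouped as luminal (Krt8, Krt18, Krt19 and Krt7), basal (Krt5, Krt14, Krt15 and Krt17), suprabasal (Krt1, Krt10, Krt4 and Krt13) and others, which numbered 41 in the first table and 21 in the second. RNA was sequenced from organoids, which are small cell clusters grown in culture, here of prostate epithelial cells from C57BL/6 mice, with 2 libraries in each of 6 groups. The first table covers 4 groups from 3-month-old mice: a control with both Setd2 and Ezh2, Setd2PC-/-, called Setd2 null, Ezh2PC-/-, called Ezh2 null, and Setd2PC-/-;Ezh2PC-/-, called double null. The second covers organoids from 2-month-old mice, with wild-type Ezh2, called Ezh2 wild type, or with Ezh2K735R, called Ezh2 K735R. Setd2 encodes a methyltransferase of histone H3 lysine 36, and Ezh2 encodes the catalytic subunit of Polycomb repressive complex 2, which methylates histone H3 lysine 27. All 6 groups, controls included, carried a further engineered deletion, in a different dose in each table, so no library was from wild-type organoids. In the first 4 groups each library held RNA pooled from 3 biological replicates, so the spread between libraries is that between pools and not between animals. The labels give no pool size for the last 2 groups and do not say which promoter drove the deletions.

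A keratin filament is built from pairs of an acidic type I and a basic type II keratin, and cells make different pairs as they differentiate. Simple and luminal epithelia make Krt8 with Krt18 and Krt19, basal cells of stratified epithelia make Krt5 with Krt14, and cells leaving the basal layer change to Krt1 with Krt10 in epidermis or to Krt4 with Krt13 in internal mucosae. Krt6a, Krt6b and Krt16 are induced in wounded or hyperproliferative epithelium and are known as activation keratins. In the normal prostate, Krt8 and Krt18 mark the secretory luminal cells and Krt5 and Krt14 the basal cells beneath them.

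Of the 53 genes, 28 are type I and 25 are type II. On mm10, 27 lie in a cluster at chr11:99232761-100269871 and 26 in a cluster at chr15:101348315-102032026, where Krt18 is the type I gene at the edge of the type II cluster. Levels in the first table are RPKM, reads scaled by transcript length and by library size, and can therefore be compared between genes. Reads recovered from these values numbered 29686052 to 54230805 per library on listed genes, with the deepest libraries in the groups without Ezh2. Keratin genes took 1.24% to 2.37% of a library's reads. Setd2 stood at 8.75 and 10.3 RPKM in the Setd2 null libraries and at 17.0 and 16.1 in control. Ezh2 itself measured 13.8 and 11.6 RPKM where it was deleted, against 19.4 and 20.9 in control and 16.6 and 14.2 in double null, so RNA of each targeted gene was present where it was deleted. By limma, Ezh2 was called lower in Ezh2 null against control (−0.63, adjusted p = 0.00414) but not in double null against control (−0.37, adjusted p = 0.0514), and Setd2 did not pass in Setd2 null against control (−0.74, adjusted p = 0.0563) but did in double null against control (−0.93, adjusted p = 0.000642). The epithelial markers Epcam, Cdh1, Cldn4, Cldn7 and Esrp1 were all detected in every group. Their summed level was 2660 to 2930 RPKM in the libraries with Ezh2 and 1210 to 1520 in those without it, and Epcam (−1.81), Cldn4 (−1.17) and Cdh1 (−0.51) were called lower in Ezh2 null against control. The part of this in the keratin differences was not tested.

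Keratin expression reached 1 RPKM on average over the 8 libraries for 21 genes, 10 of type I and 11 of type II, and these were tested. Another 25 were above 0 but below that filter, and 7 (Krt2, Krt9, Krt25, Krt26, Krt28, Krt81 and Krt82) were listed at 0 throughout. Krt10 and Krt79 averaged under 1 RPKM in control and Setd2 null and passed the filter through the other two groups, and Krt87 passed it through control and Setd2 null. The tests compared log2(RPKM + 1) with limma, and a keratin was called where the Benjamini-Hochberg adjusted p over all 11338 genes tested was under 0.05. Differences on this scale understate the change of genes near or below 1 RPKM.

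**Figure D1:**
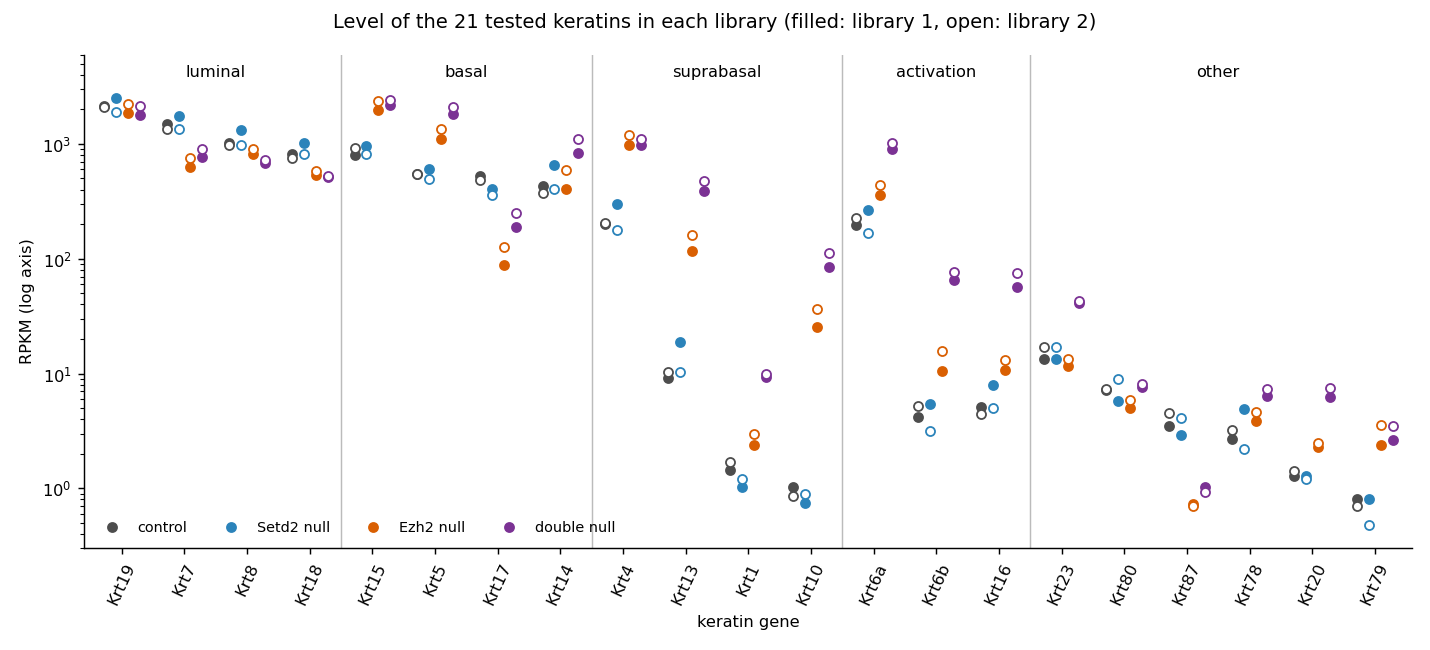
RPKM of the 21 tested keratins on a log axis in the 8 libraries of the first table, with library 1 filled and library 2 open and the genes grouped by class. Krt10 is at or below 1.02 RPKM in the libraries with Ezh2 and at 25.3 to 112 in those without it, and Krt17 sits lower there.

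Loss of Ezh2 was accompanied by a change in most tested keratins. In Ezh2 null against control 11 of the 21 were called higher and 4 lower (Krt7, Krt17, Krt18 and Krt87), 71.4% in all, where 56.6% of all genes tested were called, 36.1% higher and 20.5% lower. The median keratin difference was 0.51 and that of all genes 0.18. In double null against Setd2 null, the same loss in organoids without Setd2, 14 keratins were called higher and 5 lower against 55.0% of all genes called, 35.6% higher and 19.4% lower, with medians of 1.36 for keratins and 0.18 for all genes. Loss of Setd2 with Ezh2 intact went with no called keratin. None of the 21 passed limma's adjusted threshold in Setd2 null against control and none had an unadjusted p under 0.05, where 1.07% of all genes were called and 11.6% had such a p. EdgeR on the recovered reads also called 0 keratins and 0.908% of all genes. The keratin values in this comparison ran from −0.40 for Krt17 to 0.48 for Krt13. Loss of Setd2 without Ezh2, measured in double null against Ezh2 null, went with 10 called keratins, all higher, against 6.49% of all genes called, 3.79% higher and 2.7% lower, with medians of 0.66 and −0.02. In double null against control 14 were called higher and 5 lower, against 54.2% of all genes called, 34.2% higher and 20% lower. Comparisons that name the same group share its 2 libraries, so their values are given side by side and are not independent of each other. The share of all genes whose libraries do not overlap between groups was not computed. Lack of overlap, where given below, therefore describes the values and does not set keratins apart from other genes.

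The scaling of the values bears on the split between higher and lower. The median of all genes was 0.18 above 0 in Ezh2 null against control as deposited and 0.01 above 0 after quantile normalization. On that scale 9 keratins were called higher and 7 lower in Ezh2 null against control, where 55.9% of all genes were called, with Krt8, Krt23 and Krt80 added among the lower genes and Krt1 and Krt20 no longer called.

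**Figure D2:**
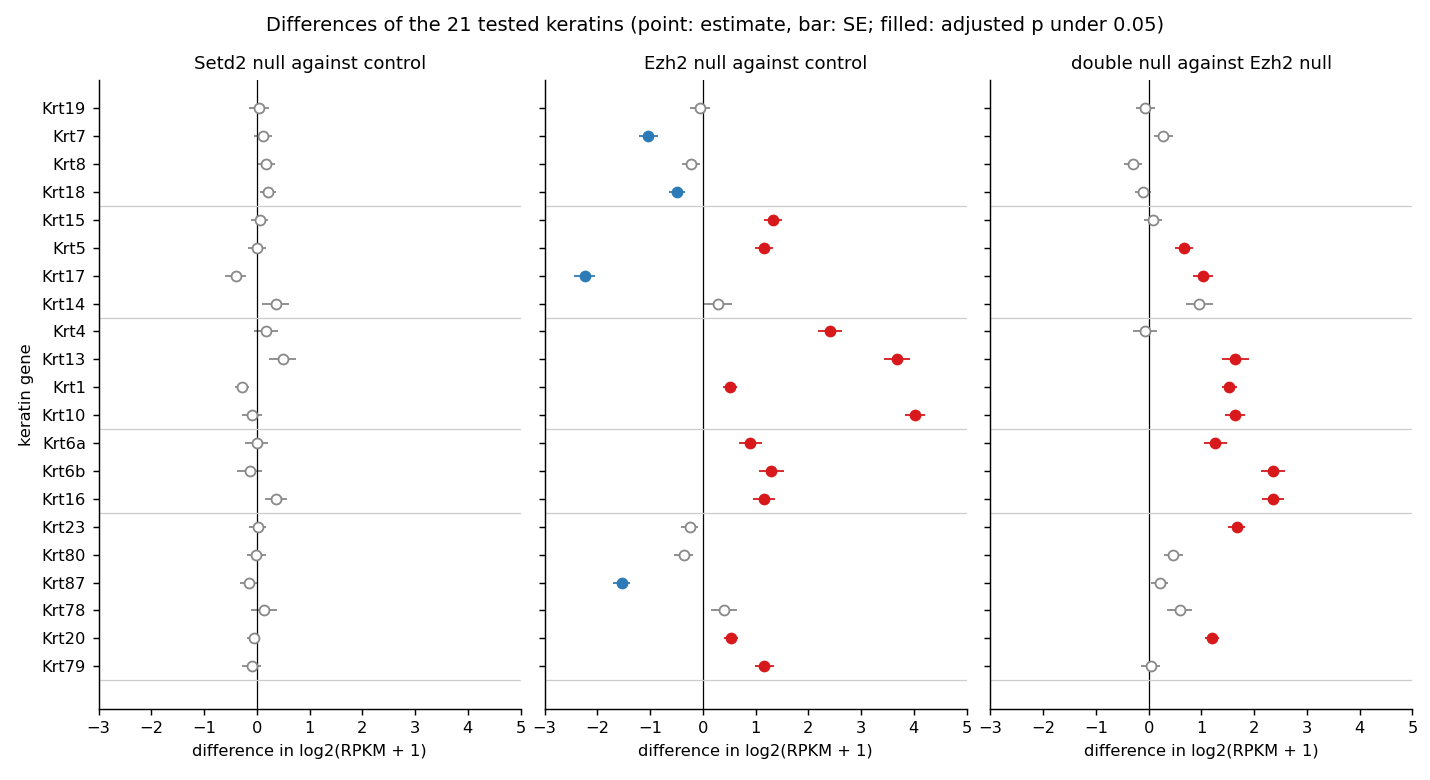
Differences in log2(RPKM + 1) with their SE for the 21 tested keratins in 3 comparisons, filled where the adjusted p is under 0.05, red for higher and blue for lower. No keratin is filled in Setd2 null against control, 15 are in Ezh2 null against control and 10, all higher, are in double null against Ezh2 null.

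The makeup of the keratin pool differed with Ezh2, with a smaller luminal share and larger basal and suprabasal shares without it. Luminal keratins made up 66.5% and 64.8% of the summed keratin RPKM in the control libraries, 66.9% in both Setd2 null libraries, 42.9% and 41.4% for Ezh2 null and 33.3% and 32.9% for double null. Basal keratins made up 28.0% and 29.1% in control, 26.7% and 27.7% for Setd2 null, 39.9% and 41.1% for Ezh2 null and 44.2% and 44.7% for double null. Suprabasal keratins made up 2.59% and 2.72% in control, 3.23% and 2.53% for Setd2 null, 12.6% and 12.9% for Ezh2 null and 12.9% and 13.0% for double null. The share of the 3 activation keratins was 2.52% and 2.94% in control, 4.23% and 4.29% for Ezh2 null and 8.99% and 8.9% for double null. In each of these classes both Ezh2 null libraries lay outside the range of the control and Setd2 null libraries. The double null libraries lay further out in the luminal, basal and activation classes, while their suprabasal shares touched the Ezh2 null range. The summed keratin level was 8119 RPKM on average in control (SD 143, n = 2), 8688 in Setd2 null (SD 1635), 9906 in Ezh2 null and 12190 in double null. Type I keratins exceeded type II in all 8 libraries, by 1.37 and 1.40 times in control and 1.16 and 1.20 times in double null. In RNA from whole cultures, fewer cells of a type and less RNA per cell cannot be told apart.

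**Figure D3:**
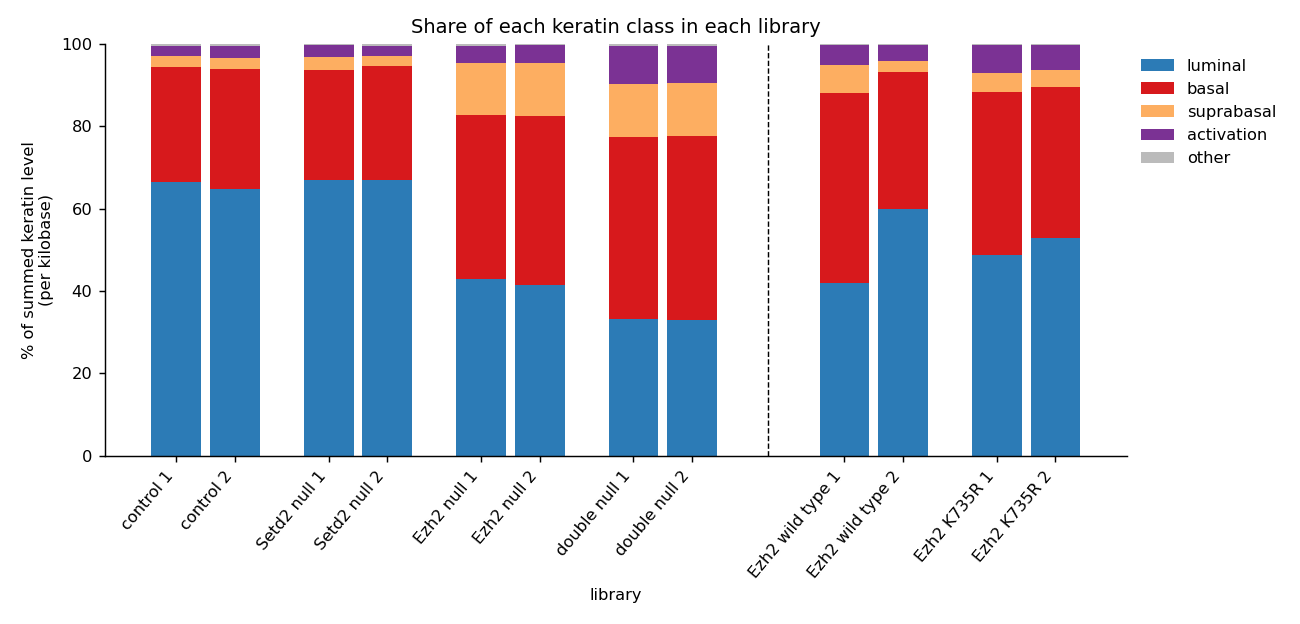
Share of the summed keratin level, per kilobase of transcript, taken by luminal, basal, suprabasal, activation and other keratins in each of the 12 libraries, with the K735R comparison right of the dashed line. The luminal share is 64.8% to 66.9% with Ezh2, 41.4% to 42.9% in Ezh2 null and 32.9% to 33.3% in double null, and the 2 Ezh2 wild type libraries stand apart at 42.0% and 60.0%.

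Among the luminal keratins, Krt7 fell most and Krt19 was not called. Krt7, a type II keratin of ducts and other simple epithelia, stood at 1478 and 1352 RPKM in control, 1742 and 1345 for Setd2 null, 632 and 757 for Ezh2 null and 775 and 908 for double null. Both groups without Ezh2 lay below both groups with it, with no overlap. The limma difference was −1.03 ± 0.18 (SE) in Ezh2 null against control (adjusted p = 0.000935) and −0.87 ± 0.18 in double null against Setd2 null (adjusted p = 0.00266). Krt18, the type I partner of Krt8, stood at 822 and 757 RPKM in control, 1011 and 824 for Setd2 null, 536 and 583 for Ezh2 null and 514 and 526 for double null, again without overlap between groups with and without Ezh2. It fell by 0.50 ± 0.15 in Ezh2 null (adjusted p = 0.0180) and by 0.81 ± 0.15 in double null against Setd2 null (adjusted p = 0.00143). Krt8 stood at 1029 and 975 RPKM in control, 1327 and 972 for Setd2 null, 819 and 905 for Ezh2 null and 688 and 718 for double null. The Krt8 difference in Ezh2 null against control was −0.22 ± 0.17 and was not called (adjusted p = 0.300), while Krt8 fell by 0.69 ± 0.17 in double null against Setd2 null (adjusted p = 0.00711). Krt19, a type I keratin of simple epithelia and of intermediate cells, was the most abundant keratin of control at 2134 and 2112 RPKM and stood at 2505 and 1902 for Setd2 null, 1859 and 2249 for Ezh2 null and 1789 and 2146 for double null. The groups overlapped for Krt19 and it was called in no comparison.

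None of the 4 luminal keratins was called in double null against Ezh2 null, with differences of −0.29 to 0.28. Some luminal calls were lost when a library was left out, although the differences changed little. Each such fit leaves 1 library in a group. The Krt18 call in Ezh2 null against control was lost without control library 1 (−0.44), without control library 2 (−0.56) and without Ezh2 null library 1 (−0.44), over a range of adjusted p from 0.000320 to 0.128 across all settings tried. In double null against control, Krt8, Krt18 and Krt7 fell by 0.51, 0.60 and 0.75. Without control library 1 these were −0.47, −0.54 and −0.69 and none passed the threshold, and the Krt8 call was lost on leaving out any of the 4 libraries compared (−0.47 to −0.55).

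The basal keratins did not move together. Krt15, a type I keratin of basal cells, stood at 805 and 921 RPKM in control, 968 and 824 for Setd2 null, 1974 and 2386 for Ezh2 null and 2176 and 2412 for double null. It rose 2.53-fold in mean RPKM in Ezh2 null, a limma difference of 1.33 ± 0.17 (adjusted p = 0.000122), and became the most abundant keratin of both groups without Ezh2 by mean, although its libraries overlapped those of Krt19 in Ezh2 null. Double null and Ezh2 null overlapped for Krt15. Krt5, the type II keratin of basal cells, stood at 543 and 551 RPKM in control, 607 and 497 for Setd2 null, 1107 and 1358 for Ezh2 null and 1812 and 2084 for double null, so that Ezh2 null and double null overlapped neither the groups with Ezh2 nor each other. It rose by 1.16 ± 0.17 in Ezh2 null against control (adjusted p = 0.000299) and by 0.66 ± 0.17 in double null against Ezh2 null (adjusted p = 0.0471). The second call was lost in 10 of 16 other settings (adjusted p 0.00767 to 0.321), including the omission of either control (0.66), Ezh2 null (0.52 and 0.81) or double null (0.77 and 0.56) library.

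Krt14, the type I partner of Krt5, stood at 434 and 373 RPKM in control, 652 and 407 for Setd2 null, 407 and 591 for Ezh2 null and 826 and 1100 for double null. Control, Setd2 null and Ezh2 null overlapped, and only the double null libraries lay above all others. The Krt14 difference was 0.28 ± 0.26 in Ezh2 null against control (adjusted p = 0.373) and 0.96 ± 0.26 in double null against Ezh2 null (adjusted p = 0.0654), neither of them called, and Krt14 rose by 1.24 ± 0.26 in double null against control (adjusted p = 0.00301). The difference from Ezh2 null was called without Ezh2 null library 2 (1.23) and without either Setd2 null library (0.96), over a range of adjusted p from 0.0305 to 0.329. Its rise in double null against Setd2 null, 0.89, was lost without Setd2 null library 2 (0.55) and without double null library 2 (0.68).

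Krt17, a basal and wound-associated type I keratin, moved the other way. It stood at 523 and 486 RPKM in control, 402 and 360 for Setd2 null, 87.8 and 127 for Ezh2 null and 190 and 248 for double null, and no 2 of these groups overlapped. Mean Krt17 was 4.69-fold lower in Ezh2 null than in control, a limma difference of −2.24 ± 0.20 (adjusted p = 1.31e-05). In double null it was 2.04-fold higher than in Ezh2 null (1.03 ± 0.20, adjusted p = 0.0135) and below Setd2 null (−0.81 ± 0.20, adjusted p = 0.00691). The rise over Ezh2 null was lost without Ezh2 null library 1 (0.76) and without double null library 2 (0.84), with adjusted p from 0.00390 to 0.112 over the settings tried. Krt14, Krt16 and Krt17 are close relatives in sequence, as are Krt6a and Krt6b, and how reads shared between such genes were divided is not given in the sources used here, so their separate levels carry that uncertainty.

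All 4 suprabasal keratins were called higher without Ezh2, in organoids with Setd2 and in organoids without it. Of all genes tested, 36.1% were called higher in Ezh2 null against control and 35.6% in double null against Setd2 null. The bases just before the start sites of Krt10 and Krt13 are shown with those of Krt5, a basal gene that rose, and of 3 luminal genes, because the groups moved in different directions. The sequences are RefSeq promoter sequences on GRCm38.p6, 120 bases each, 5′ to 3′ on the gene's strand and ending at the base before the annotated start, with CG pairs in capitals.
Krt10 (chr11:99389365-99389484, minus strand): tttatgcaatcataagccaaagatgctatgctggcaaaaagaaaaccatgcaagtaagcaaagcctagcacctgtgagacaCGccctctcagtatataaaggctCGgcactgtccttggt
Krt13 (chr11:100121567-100121686, minus strand): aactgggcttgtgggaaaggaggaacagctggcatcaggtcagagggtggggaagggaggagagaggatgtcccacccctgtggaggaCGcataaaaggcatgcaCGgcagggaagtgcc
Krt5 (chr15:101712906-101713025, minus strand): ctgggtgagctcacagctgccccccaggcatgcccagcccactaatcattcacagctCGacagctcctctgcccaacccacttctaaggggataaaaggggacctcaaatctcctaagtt
Krt8 (chr15:102004343-102004462, minus strand): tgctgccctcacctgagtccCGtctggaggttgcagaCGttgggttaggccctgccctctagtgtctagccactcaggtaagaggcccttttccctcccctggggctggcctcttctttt
Krt18 (chr15:102028096-102028215, plus strand): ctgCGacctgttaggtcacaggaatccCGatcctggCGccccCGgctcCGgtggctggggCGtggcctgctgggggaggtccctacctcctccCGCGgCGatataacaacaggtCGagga
Krt7 (chr15:101412283-101412402, plus strand): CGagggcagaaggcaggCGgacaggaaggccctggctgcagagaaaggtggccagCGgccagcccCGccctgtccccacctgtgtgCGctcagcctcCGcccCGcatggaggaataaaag

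Over the 250 bases upstream, Krt10, Krt13 and Krt5 each held 2 CG pairs, Krt8 held 3, Krt18 held 12 and Krt7 held 16, against a median of 6 over all 32851 upstream windows of that length. Windows were matched for 36 of the 53 keratins and 11 of the 21 tested, with medians of 3.5 and 5 CG pairs. Krt7 and Krt18, called lower in Ezh2 null against control, thus held 16 and 12 CG pairs. The matched keratins called higher there, Krt5, Krt10, Krt13, Krt20 and Krt79, held 2 to 5. Krt8, Krt14, Krt23 and Krt78, which were not called there, held 3 to 6. Whether this count bears on the direction of a keratin was not tested. The RefSeq start of Krt10 lies 335 bases inside the start of the deposited gene position, and that of Krt5 14 bases outside it. Those of the tested keratins Krt14 and Krt78 lie 1480 and 42337 bases inside it, and their windows enter the medians and the counts of letters. The letters TATAAA, searched on both strands, were in 17 of the 36 keratin windows, in 2 of the 11 windows of tested keratins (Krt10 and Krt20) and in 12.4% of all windows. The letters TGANTCA were in 1 keratin window, that of Krt13, and in 6.75% of all windows, GCCNNNGGC in 5 and in 13.7%, and GGGCGG in 2 and in 32.7%. A TGANTCA match is a description of the letters and not of a binding site.

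Krt10, the type I keratin of differentiating epidermis, stood at 1.02 and 0.859 RPKM in control, 0.742 and 0.892 for Setd2 null, 25.3 and 36.7 for Ezh2 null and 84.1 and 112 for double null. Mean Krt10 was 33.0-fold higher in Ezh2 null than in control and 3.16-fold higher in double null than in Ezh2 null, with no overlap in either comparison. The limma differences were 4.02 ± 0.19 (adjusted p = 2.23e-07) and 1.64 ± 0.19 (adjusted p = 0.000817). Krt1, its type II partner, stood at 1.44 and 1.71 RPKM in control, 1.03 and 1.21 for Setd2 null, 2.37 and 2.97 for Ezh2 null and 9.24 and 9.95 for double null. Its differences were 0.51 ± 0.13 in Ezh2 null against control (adjusted p = 0.00922) and 1.53 ± 0.13 in double null against Ezh2 null (adjusted p = 0.000159). The first of these was lost without control library 1 (0.44) and without Ezh2 null library 2 (0.39), with adjusted p from 0.00260 to 0.115 over the settings tried.

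Krt13, the type I suprabasal keratin of internal mucosae, stood at 9.20 and 10.3 RPKM in control, 18.99 and 10.3 for Setd2 null, 116 and 162 for Ezh2 null and 392 and 471 for double null. It was 14.2-fold higher in Ezh2 null than in control (3.68 ± 0.26, adjusted p = 2.52e-06) and 3.11-fold higher again in double null (1.64 ± 0.26, adjusted p = 0.00437), with no overlap. The second call was lost without double null library 2 (1.51, adjusted p = 0.0534, the highest over the settings tried, against a lowest of 0.00298). Krt4, its type II partner, stood at 201 and 205 RPKM in control, 297 and 178 for Setd2 null, 988 and 1193 for Ezh2 null and 969 and 1102 for double null. Krt4 was 5.36-fold higher in Ezh2 null than in control (2.41 ± 0.22, adjusted p = 1.83e-05), and the 2 groups without Ezh2 overlapped (−0.07 ± 0.22, adjusted p = 0.980).

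The activation keratins rose in both steps. Krt6a, the most abundant of the 3, stood at 198 and 226 RPKM in control, 266 and 167 for Setd2 null, 358 and 437 for Ezh2 null and 895 and 1012 for double null. Krt6b stood at 4.20 and 5.21 RPKM in control, 5.44 and 3.13 for Setd2 null, 10.6 and 15.8 for Ezh2 null and 65.1 and 76.3 for double null. Krt16, their type I partner, stood at 5.07 and 4.44 RPKM in control, 8.02 and 5.04 for Setd2 null, 10.7 and 13.2 for Ezh2 null and 56.3 and 74.6 for double null. For all 3 genes control and Setd2 null overlapped, both Ezh2 null libraries lay above them, and both double null libraries lay above Ezh2 null. How many of all genes show such an order was not computed. In Ezh2 null against control the differences were 0.90 ± 0.22 for Krt6a, 1.30 ± 0.23 for Krt6b and 1.16 ± 0.21 for Krt16 (adjusted p = 0.00595, 0.00121 and 0.00116). In double null against Ezh2 null they were 1.27 ± 0.22, 2.36 ± 0.23 and 2.36 ± 0.21 (adjusted p = 0.00737, 0.000314 and 0.000163). The Krt6a rise in Ezh2 null was lost without control library 1 (0.80, adjusted p = 0.0525 in a range of 0.000295 to 0.0525).

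The other tested keratins were Krt20, Krt23, Krt78, Krt79, Krt80 and Krt87, and each except Krt80 was called in at least 1 comparison. Krt20, a type I keratin of urothelium and gut, stood at 1.27 and 1.42 RPKM in control, 1.27 and 1.21 for Setd2 null, 2.30 and 2.50 for Ezh2 null and 6.2 and 7.53 for double null, and was called higher in Ezh2 null against control (0.54 ± 0.13, adjusted p = 0.00576) and in double null against Ezh2 null (1.20 ± 0.13, adjusted p = 0.000493). Krt23, a type I keratin, stood at 13.3 and 17.0 RPKM in control, 13.5 and 17.1 for Setd2 null, 11.7 and 13.4 for Ezh2 null and 41.2 and 42.5 for double null. Control, Setd2 null and Ezh2 null overlapped for Krt23, and it rose 3.34-fold in double null over Ezh2 null (1.66 ± 0.16, adjusted p = 0.000247). Krt79, a type II keratin, stood at 0.802 and 0.705 RPKM in control, 0.809 and 0.481 for Setd2 null, 2.402 and 3.55 for Ezh2 null and 2.65 and 3.46 for double null, and was called in Ezh2 null against control (1.17 ± 0.18, adjusted p = 0.000400). Krt87, counted here with the hair keratins, stood at 3.52 and 4.50 RPKM in control, 2.94 and 4.07 for Setd2 null, 0.729 and 0.702 for Ezh2 null and 1.04 and 0.927 for double null. It fell by 1.54 ± 0.15 in Ezh2 null against control (adjusted p = 3.11e-05) and the groups with and without Ezh2 did not overlap. Krt78 rose in double null against control (0.99 ± 0.24, adjusted p = 0.00731), a call lost without control library 1 (0.89), and in double null against Setd2 null (0.85), a call lost without Setd2 null library 2 (0.41) and without double null library 2 (0.75). Krt80, a type II keratin, ranged from 4.999 to 8.99 RPKM over the 8 libraries and was called in no comparison. Without either Setd2 null library, Krt78 (0.40) and Krt80 (−0.36) were also called in Ezh2 null against control.

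The ratio between usual partners differed between groups, by little for Krt8 and Krt18 and by more for the others. The level of Krt8 over that of Krt18 was 1.25 and 1.29 in control, 1.53 and 1.55 for Ezh2 null and 1.34 and 1.36 for double null. Krt5 exceeded Krt14 by 1.25 and 1.48 times in control, 2.72 and 2.30 times for Ezh2 null and 2.19 and 1.89 times for double null. Krt4 exceeded Krt13 by 21.9 and 19.9 times in control, 8.54 and 7.37 times for Ezh2 null and 2.47 and 2.34 times for double null, the lowest of the 4 groups. Krt1 over Krt10 was 1.41 and 1.99 in control, 0.0937 and 0.081 for Ezh2 null and 0.11 and 0.0888 for double null. Krt6a over Krt16 was 38.9 and 50.9 in control, 33.6 and 33.0 for Ezh2 null and 15.9 and 13.6 for double null. In Setd2 null, Krt8 over Krt18 was 1.31 and 1.18 and Krt5 over Krt14 was 0.931 and 1.22. Krt4 over Krt13 was 15.6 and 17.2 there, and Krt1 over Krt10 was 1.38 and 1.36. Krt6a over Krt16 was 33.2 and 33.1 in Setd2 null, within the Ezh2 null range. Across pairs, Krt5 was at 0.528 and 0.565 of the Krt8 level in control, 0.457 and 0.511 for Setd2 null, 1.35 and 1.5 for Ezh2 null and 2.63 and 2.90 for double null, so the basal type II keratin passed the luminal one in all 4 libraries without Ezh2. These ratios are given per library with no test.

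Setd2 loss differed in its accompanying keratin levels according to Ezh2. The interaction, which is the difference of double null from Ezh2 null minus that of Setd2 null from control, was called for 7 keratins, all higher, against 2.59% of all genes called, 1.69% higher and 0.9% lower. They were Krt6b (2.50 ± 0.33), Krt16 (1.99 ± 0.29), Krt1 (1.81 ± 0.19), Krt10 (1.73 ± 0.27), Krt23 (1.65 ± 0.22), Krt17 (1.43 ± 0.28) and Krt20 (1.27 ± 0.18), with limma adjusted p from 0.00147 to 0.0283. The median over the 21 tested keratins was 0.60 and that over all genes −0.01. No luminal keratin was called, and the 4 luminal values ran from −0.47 for Krt8 to 0.16 for Krt7. Krt6a (1.27 ± 0.31, adjusted p = 0.0751) and Krt13 (1.16 ± 0.36, adjusted p = 0.184) did not pass. The Krt17 interaction was lost without control library 1 (1.38), control library 2 (1.49), Setd2 null library 1 (1.51), Setd2 null library 2 (1.36), Ezh2 null library 1 (1.17) or double null library 2 (1.24), and that of Krt10 without control library 1 (1.67) or Setd2 null library 1 (1.67). Without Setd2 null library 1, Krt13 (1.57) and Krt6a (1.61) passed.

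Libraries of 1 group differed in the same direction for many keratins. Of the 21 tested, 20 were higher in library 2 than in library 1 in Ezh2 null and 20 in double null, 16 were higher in library 1 in Setd2 null, and control was split 12 to 9. The class shares given above, which are ratios within a library, do not carry a difference common to all keratins.

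Some neighbouring keratin genes moved together and others did not. On chromosome 11, Krt13, Krt15 and Krt19 lie next to each other, all on the minus strand, and had differences of 3.68, 1.33 and −0.05 in Ezh2 null against control. Krt16 and Krt17, also neighbours, had differences of 1.16 and −2.24. Krt10 was the only tested gene among the 8 keratins from Krt222 to Krt12. On chromosome 15, Krt6b, Krt6a and Krt5 lie next to each other and were all called higher (1.30, 0.90 and 1.16), as were the neighbours Krt4 and Krt79 (2.41 and 1.17), while Krt7 and Krt87 at the other end were called lower (−1.03 and −1.54), next to Krt80, which was not called.

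**Figure D4:**
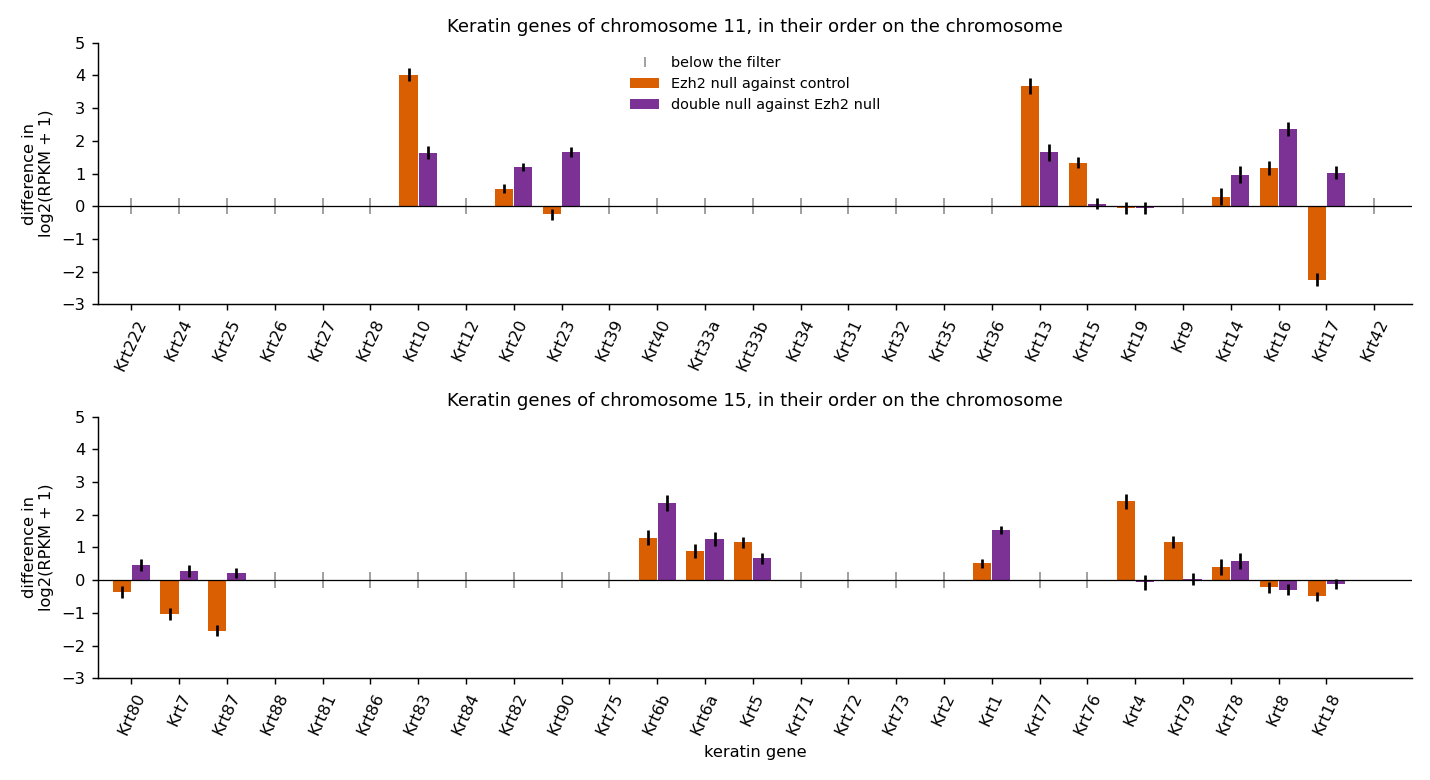
Differences in log2(RPKM + 1) with their SE for the keratin genes of chromosomes 11 and 15 in their order on the chromosome, for Ezh2 null against control (orange) and double null against Ezh2 null (purple), with a tick for each gene below the filter. Neighbours such as Krt16 and Krt17 differ in sign in Ezh2 null against control, while Krt6b, Krt6a and Krt5 lie on the same side in both comparisons.

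The 25 keratins below the filter were faint, with at most 1.27 RPKM as the mean of a group (Krt32 in Ezh2 null) and 448 to 717 reads in all over both libraries of a group. Some of them, chosen after their values were seen, went with Ezh2 loss in edgeR's quasi-likelihood test on the recovered reads, which called 51.1% of all genes in Ezh2 null against control. Krt32 and Krt36 passed edgeR's filter on low counts through the groups without Ezh2, and Krt90 through those with it. Calls of such genes are partly set by that filter and are no separate support. Krt32, a type I hair keratin, had 1 and 5 reads in control, 5 and 2 for Setd2 null, 126 and 95 for Ezh2 null and 61 and 60 for double null (4.22 ± 0.69 in Ezh2 null against control, edgeR adjusted p = 0.000635). Krt36, another hair keratin, had 1 and 2 reads in control, 2 and 0 for Setd2 null, 36 and 27 for Ezh2 null and 47 and 45 for double null (3.37 ± 0.90, edgeR adjusted p = 0.0106). Krt75, a type II keratin of the hair follicle, had 138 and 86 reads in control, 113 and 56 for Setd2 null, 23 and 21 for Ezh2 null and 20 and 56 for double null (−3.27 ± 0.59, edgeR adjusted p = 0.00114). Krt90, a type II keratin, had 56 and 48 reads in control, 72 and 64 for Setd2 null, 6 and 4 for Ezh2 null and 0 and 15 for double null (−4.28 ± 0.99, edgeR adjusted p = 0.00494). In all, edgeR tested 11 of the low keratins and called 7 of them in Ezh2 null against control, the others being Krt12, Krt39 and Krt83. Krt83, a type II hair keratin, had 17 and 16 reads in control, 25 and 10 for Setd2 null, 2 and 4 for Ezh2 null and 32 and 18 for double null. It was called lower in Ezh2 null against control (−3.31 ± 0.85, edgeR adjusted p = 0.00837) and not in double null against Setd2 null (−0.24 ± 0.71, edgeR adjusted p = 0.800).

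Genes that bind or anchor keratin filaments changed in both directions. Of 20 tested genes of plakins, desmosomes and keratin-binding proteins, 6 were called higher and 5 lower in Ezh2 null against control, 55.0% in all against 56.6% of all genes, with a median of −0.18 (all genes 0.18). The lower genes included Pkp1, a desmosomal plaque protein, at 291 and 320 RPKM in control and 78.9 and 96.7 in Ezh2 null (−1.79), and the desmosomal cadherins Dsg2 (−1.15) and Dsc2 (−1.15). The higher genes included Dsc3 (1.17), a desmosomal cadherin of basal layers. In double null against Ezh2 null, where 6.49% of all genes were called, 7 were called higher and 0 lower, among them Dsg3 (0.996), Dsc3 (0.92), Perp (0.72) and Evpl (0.79), an envelope plakin, with 9 of 20 at an unadjusted p under 0.05 in limma. Of 6 tested genes of other intermediate filaments, 4 were called higher and 2 lower in Ezh2 null against control. Vim, the filament of mesenchymal cells, stood at 83.3 and 74.7 RPKM in control and 3.90 and 4.22 in Ezh2 null (−3.98), and Nes, a filament protein of progenitor cells, fell by 2.33. The summed level of all 16 listed genes of other filaments was 232 and 234 RPKM in control and 204 and 250 in Ezh2 null.

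Transcription factors of simple and stratified epithelia were called about as often as all genes in Ezh2 null against control. Of 30 tested, 12 were higher and 4 lower there, 53.3% in all against 56.6% of all genes, with a median of 0.28 (all genes 0.18). Of the same factors, 7 were higher and 1 lower in double null against Ezh2 null, where 6.49% of all genes were called (median 0.21, all genes −0.02). Elf5 (2.15), Notch1 (1.69) and Klf4 (1.55), a factor of suprabasal differentiation, were higher in Ezh2 null than in control. Klf4 stood at 8.35 and 8.41 RPKM in control, 23.8 and 29.5 for Ezh2 null and 54.2 and 64.9 for double null (1.13 over Ezh2 null), and Grhl3 (1.03) and Ovol1 (0.92), 2 further factors of epidermal differentiation, were higher in double null too, while Elf5 was the 1 called lower (−0.80). Trp63, which encodes the p63 factor of basal cells, stood at 21.3 and 21.3 RPKM in control, 18.3 and 17.6 for Ezh2 null and 27.9 and 26.8 for double null and was called higher in double null against Ezh2 null (0.58, limma adjusted p = 0.0135).

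Squamous differentiation genes, which include those of the cornified envelope, were mostly called higher in both steps by count. Their summed level was lower in Ezh2 null than in control and higher in double null than in Ezh2 null. Of 17 tested, 10 were higher and 1 lower in Ezh2 null against control (median 1.13), where 36.1% of all genes were called higher and 20.5% lower. Of the same genes, 15 were higher and 0 lower in double null against Ezh2 null (median 1.08), where 3.79% of all genes were called higher, with 16 at an unadjusted p under 0.05 in limma. The summed level of all 25 listed genes was 1110 RPKM in both control libraries and 1650 and 1010 in Setd2 null. It was 859 and 930 in Ezh2 null, lower than in control, and 1590 and 1720 in double null. Setd2 null library 1 thus lay within the double null range. Of the 17 tested genes, Ivl alone was called in Setd2 null against control, higher (1.37, limma adjusted p = 0.0148), where 1.07% of all genes were called. Calml3 (4.12) and Krtdap (3.83), 2 genes of keratinocyte differentiation, stood among the higher genes in Ezh2 null, and Crct1 (2.31), Rptn (1.55) and Cnfn (1.89) among those in double null against Ezh2 null.

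Non-keratin markers of the prostate layers moved with some keratins of the same layer and against others. Of 12 basal genes other than keratins, 7 were called lower and 2 higher in Ezh2 null against control (median −1.06), where 20.5% of all genes were called lower and 36.1% higher, and their summed level was 2170 and 2210 RPKM in control and 678 and 748 in Ezh2 null. The epithelial laminin genes Lama3 (−4.11) and Lamb3 (−3.04) fell, and Aqp3 (4.69), a water and glycerol channel of basal cells, rose. Of 12 luminal genes other than keratins, 7 were called higher and 0 lower (median 1.29), 58.3% in all against 56.6% of all genes, and their summed level was 950 and 963 RPKM in control and 2480 and 2490 in Ezh2 null. Psca (2.71), a surface antigen, Hoxb13 (1.93), a prostate homeobox factor, and Pbsn (1.73), a secretory protein, were among those called higher. Krt17 thus fell as did most other basal markers, while Krt5 and Krt15 rose, and Krt7 and Krt18 fell where the luminal markers called rose.

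Markers of other tissues moved with the same groups. The 7 seminal vesicle genes summed to 0 to 0.0323 RPKM in control and Setd2 null and to 36.1 to 52.1 in the groups without Ezh2, mostly from Pate4, with Svs1, Svs3a and Svs6 at 0 throughout. The 9 stromal genes summed to 2.13 to 4.18 RPKM with Ezh2 and 29.2 to 34.0 without it. Dcn was the highest of them, and the muscle markers Des and Myh11 stayed below 1 RPKM as group means. The 5 urothelial genes summed to 27.7 to 36.0 RPKM with Ezh2 and 41.3 to 66.5 without it, with Upk3b at most 0.093 as a group mean. Of the 4 tested, 3 were called higher in Ezh2 null against control and Upk3a lower (−1.54), where 56.6% of all genes were called. The 6 immune genes summed to 21.8 to 39.5 RPKM with Ezh2 and 13.0 to 14.9 without it, and the 5 endothelial genes to at most 3.25. The 2 immune genes tested went opposite ways in Ezh2 null against control, with Lyz2 called higher (3.16) and Cd68 lower (−2.18). The part of these other tissues in the keratin differences was not tested.

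The K735R comparison set mutant beside wild-type Ezh2. Its deposited counts totalled 28831228 to 37482322 per library, and keratins took 2.15% to 2.46% of them. Of 26 keratins tested with edgeR's quasi-likelihood test, none was called, 4 had an unadjusted p under 0.05 (Krt16, Krt6a, Krt6b and Krt90), where 0.00757% of all 13203 genes tested were called and 9.24% had such a p. DESeq2 called 3 keratins (Krt16, Krt6a and Krt6b, all higher) and 2.31% of all genes, and limma on log2 CPM called 0 keratins and 0.0151% of all genes. The median keratin difference was 0.21 and that of all genes −0.01. Levels in this table are counts scaled by library size only (CPM) and are not compared between genes. Only the class shares below use transcript lengths, and no level is compared with the first table, which was normalised separately.

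Among the keratins tested, the activation keratins had the smallest p in this comparison. Krt16 stood at 35.1 and 19.1 CPM in Ezh2 wild type and at 91.1 and 76.8 in Ezh2 K735R, and Krt6a at 1396 and 1113 against 2042 and 1870. Krt6b stood at 31.3 and 23.6 CPM in Ezh2 wild type and at 50.3 and 41.9 in Ezh2 K735R. In all 3 genes both Ezh2 K735R libraries lay above both Ezh2 wild type libraries. As the genes are singled out by their small p in these same libraries, the lack of overlap is no separate support. The edgeR differences were 1.63, 0.64 and 0.75 (adjusted p = 0.323, 0.417 and 0.401, over settings from 2.36e-05, 0.00128 and 0.00887 up to 0.9999 in each). Krt90 stood at 3.04 and 6.33 CPM against 11.99 and 8.73 (1.14, adjusted p = 0.522).

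For several other keratins the 2 Ezh2 wild type libraries stood further apart than the 2 Ezh2 K735R libraries. Krt5 stood at 3987 and 1658 CPM in Ezh2 wild type and 3178 and 2559 in Ezh2 K735R, Krt8 at 1951 and 3646 against 3087 and 3724, and Krt18 at 703 and 1270 against 1107 and 1370. Krt17 stood at 515 and 1123 CPM against 1170 and 1262, Krt4 at 1858 and 750 against 1312 and 1186, and Krt13 at 38.8 and 11.9 against 78.1 and 39.2. With transcript lengths taken from the first table, the luminal share of keratins was 42.0% and 60.0% in the Ezh2 wild type libraries and 48.8% and 52.9% in Ezh2 K735R, and the basal share 46.0% and 33.1% against 39.6% and 36.7%. Ezh2 wild type library 1 was thus the more basal and library 2 the more luminal in its keratins. Without Ezh2 wild type library 1, 6 keratins were called, all higher, where 4.77% of all genes were called. Without library 2, 10 were called, 8 higher and 2 lower, where 11.8% of all genes were called. Krt4 was at 0.735 without library 1 and −0.56 without library 2, and Krt5, Krt14 (0.79 and 0.60 without library 1), Krt15, Krt7, Krt8, Krt17, Krt18 and Krt90 (−0.50, 0.32, 0.82, 1.25, 0.83 and 1.78 without library 2) were called only in such a fit. In those fits the lone library is assumed to vary like the other group. Krt16 (2.14 and 1.27), Krt6a (0.81 and 0.50) and Krt6b (0.97 and 0.57) were called in both of them.

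The suprabasal keratins were not called here. Krt10 stood at 3.403 and 2.99 CPM in Ezh2 wild type and 4.82 and 3.91 in Ezh2 K735R (0.45, adjusted p = 0.682), and Krt1 at 1.40 and 0.431 against 1.04 and 0.970. Krt13 had a difference of 1.22 (adjusted p = 0.634), and its lowest Ezh2 K735R library, at 39.2 CPM, lay just above its highest Ezh2 wild type library, at 38.8. Krt19, at 3408 and 3829 CPM against 3771 and 3862, differed by 0.08 (adjusted p = 0.908).

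**Figure D5:**
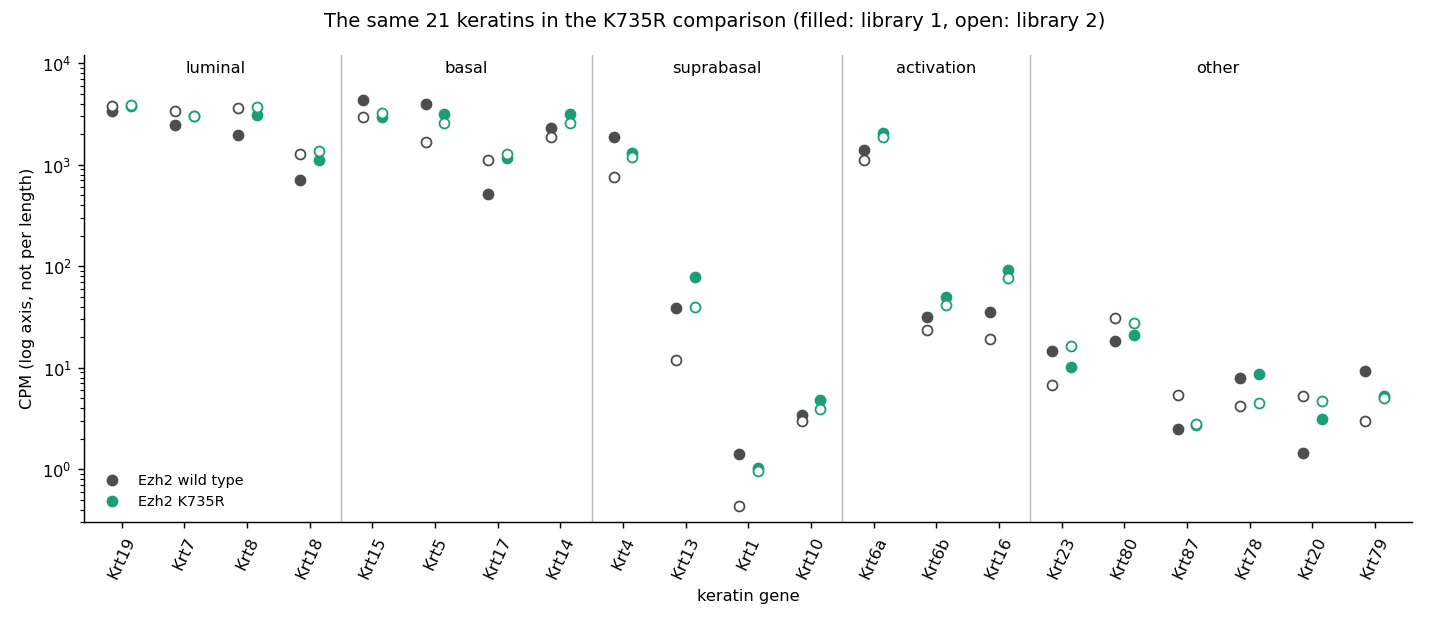
CPM of the same 21 keratins on a log axis in the 2 libraries of Ezh2 wild type and the 2 of Ezh2 K735R, with library 1 filled and library 2 open. Krt16, Krt6a and Krt6b lie higher in both Ezh2 K735R libraries, while for Krt5, Krt4, Krt8, Krt17 and Krt18 the 2 Ezh2 wild type points are farther apart than the 2 Ezh2 K735R points.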

How the data were processed

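RNA was sequenced as paired reads of 150 nucleotides in 12 libraries of mouse prostate organoids, 2 in each of 6 groups, and 3 chromatin immunoprecipitation or input samples were not analysed here. The first table holds RPKM values and the second raw counts per gene, both as the authors deposited them. Per the submitters' processing notes, the build was mm10 and the tools named for the series were Bowtie, RSEM, BWA and SICER. Their versions, the strandedness and the division of shared reads are not given in the sources.

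RPKM values stepped by what a single read is worth. For 13744 of the 13748 genes detected in every one of the 8 libraries (99.97%), dividing by that step gave integers within 0.01 reads, and so reads, library totals and transcript lengths. RPKM values were tested as log2(RPKM + 1) in limma 3.58.1 (trend, robust), with all 4 groups in one fit and genes kept at a mean of at least 1 RPKM. Counts were tested with edgeR 4.0.16 (TMM, its filter on low counts, robust quasi-likelihood test). P-values were two-sided and Benjamini-Hochberg adjusted over all genes tested in a comparison, in R 4.3.3, and calls were made under 0.05. The fits were also run on simulated data in which few genes were changed. The comparisons across Ezh2 loss, where most genes were called, differ from that setting, so the simulation does not vouch for their calls. SE and p measure the spread between libraries.

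Named with values were the 12 luminal, basal and suprabasal keratins, every other keratin that reached 5 RPKM or CPM in a group or was called with at least 1 RPKM or CPM in the higher group, and, from each list, the 4 genes at most with the lowest p. The members and lists were chosen with earlier results of these data known. Alternatives were quantile and median-ratio scaling, a pseudocount of 0.1, no filter, filters at 5 RPKM or 10 counts, edgeR on the recovered reads, DESeq2 1.42.0, limma on log2 CPM, omission of TMM factors, a fit of the compared groups alone, the replicate number as a block, median-ratio size factors and omission of each library. A few genes, and the further deletion that all groups carried, are not reported here.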

Additional observations from a re-analysis of the deposited data

Results flagged for a closer look

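For 7 keratins the difference between organoids with and without Setd2 itself differed according to whether Ezh2 was deleted, by limma's interaction test (adjusted p from 0.00147 to 0.0283). On the log2(RPKM + 1) scale the interaction was 2.50 for Krt6b, 1.99 for Krt16, 1.81 for Krt1, 1.73 for Krt10, 1.65 for Krt23, 1.43 for Krt17 and 1.27 for Krt20. In the same test 2.59% of all genes were called. In each of these genes both double null libraries lay above both Ezh2 null libraries. The genes were picked by a positive interaction in the same libraries, so this is largely set by the choice and is no separate support. Of the 7, 4 were called under all 14 or 15 alternative settings in which they were tested, and Krt10, Krt17 and Krt20 were not.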

How the results depend on the processing

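All 7 counts of called keratins were recomputed under each alternative. Those that moved by more than 1.5 times were Ezh2 null against control with edgeR on the recovered reads, 23 of 32 tested in place of 15 of 21, and double null against control with no filter, 30 of 46 in place of 19 of 21, and both test more genes. The first of these settings called 51.1% of all genes, against 56.6% in the main fit. For the fit with no filter and the omissions below no share of all genes is given here, so those counts do not set keratins apart from other genes. For Ezh2 K735R against Ezh2 wild type DESeq2 called 3 where edgeR called 0, and the cause was not tested. Omitting 1 library at a time gave 12 to 17 called keratins in Ezh2 null against control, 17 to 19 in double null against Setd2 null, 7 to 11 in double null against Ezh2 null, 15 to 19 in double null against control, 5 to 7 for the interaction, 0 in Setd2 null against control and 0 to 10 for Ezh2 K735R. In Ezh2 K735R 12 keratins changed sign under some setting, and 1 of them, Krt4, was called where it did, at 0.735 without Ezh2 wild type replicate 1 and −0.56 without replicate 2, against −0.06 with both. No keratin was called with a changed sign in the other comparisons. Called under every setting were 11 of 15, 17 of 19, 7 of 10, 15 of 19 and 4 of 7 keratins in the first 5 of these comparisons.

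The labels do not tie the replicate numbers to shared animals or days, and each group has only 2. Same-numbered libraries correlated in their deviations at 0.933 between Ezh2 null and double null and at 0.101 to 0.358 between other groups compared. With the replicate block the counts were 15, 19, 9, 19, 7, 0 and 0 in the same order, and the count of 10 became 9 through Krt5 alone (adjusted p = 0.0518). The block fits 1 shift common to all groups, so it cannot take up a deviation that mainly Ezh2 null and double null share. Depth limits the 25 keratins below the filter, which had 448 to 717 reads per group in all.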
